A study of Caenorhabditis elegans with 12 samples.

Results

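The MATH and BATH genes of Caenorhabditis elegans encode proteins with a MATH domain, named after the meprin proteases and the TRAF adaptors that share it. They were taken as every gene of the deposited table whose name is math- or bath- followed by a number, which gave 93 of 46726 genes, 49 of them math and 44 bath. Messenger RNA of whole worms at day 7 of adulthood was sequenced in 6 xpf-1 libraries and 6 N2 libraries. The xpf-1 group is strain TG1660, whose tm2842 allele removes part of the xpf-1 gene, and N2 is the laboratory wild type. XPF-1 is a nuclease of nucleotide excision repair. All worms were age-synchronised and raised on plates with the bacterium Escherichia coli OP50, each library held the RNA of many pooled worms, and the mutant group is 1 strain.

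The MATH domain folds into a pocket that binds short stretches of other proteins. In a BATH protein it is joined to a BTB domain, which docks onto the scaffold protein CUL-3 of a ubiquitin ligase, so that the BATH protein brings its target to the ligase. The best studied worm member of this class is MEL-26, which carries another name and so lies outside the list. It marks the microtubule-severing katanin MEI-1 for destruction after meiosis. The family has expanded in nematodes into arrays of neighbouring copies, and most copies have no assigned target.

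Total counts ran from 18407182 to 22817135 per library. The xpf-1 transcript averaged 11.7 ± 1.57 CPM (the gene's counts per TMM-scaled library size) in xpf-1 libraries and 72.9 ± 7.18 CPM in N2 libraries (SD, n = 6 each), with no overlap between the groups (two-sided exact permutation p = 0.0022, the lowest value possible with these numbers). One library is titled N2 replicate 6 but its genotype label names the mutant. Its 1468 xpf-1 reads lay among the 1192 to 1758 of the N2 libraries and above the 213 to 304 of the xpf-1 libraries, and it was kept in N2. Compared with the other libraries of their groups, N2 replicate 5 and xpf-1 replicates 1 and 5 stood apart, and the family's counts are given with and without them. Markers of the germline and oocytes, which fill much of an adult hermaphrodite, summed to between 3730 and 4070 CPM in xpf-1 libraries and between 6610 and 7670 CPM in N2 libraries, with 21 of 22 markers lower, 1 higher and 0 without reads. Early embryo markers summed to 203 to 219 CPM in xpf-1 libraries and 293 to 325 CPM in N2 libraries (2 of 9 tested higher, 3 lower). Most of this sum was pal-1, which fell, as did tbx-37 and ceh-51 at lower levels. The next largest of these markers, elt-1, rose, and so did hlh-1. The lower sum is mostly that of pal-1, and the other tested markers fell, rose or did not pass. Hypodermal markers summed to 304 to 333 CPM in xpf-1 libraries and 367 to 399 CPM in N2 libraries. Of the 6 tested hypodermal markers 2 rose (dpy-7 and che-14) and 3 fell, among them the collagen gene col-19, which holds most of the sum. The marker dpy-7 had enough reads to be tested only through the xpf-1 libraries, in which it is high, and its call carries that limit. The sums overlapped for body wall muscle (1190 to 1360 CPM in xpf-1 libraries, 1270 to 1500 CPM in N2 libraries, 2 of 10 markers higher and 5 lower), intestine (908 to 1350 CPM in xpf-1 libraries, 1230 to 1410 CPM in N2 libraries, 3 of 10 markers higher and 4 lower), neurons (488 to 516 CPM in xpf-1 libraries, 460 to 501 CPM in N2 libraries, 4 of 12 markers higher and 0 lower) and sperm (17.1 to 27.3 CPM in xpf-1 libraries, 18.9 to 28.9 CPM in N2 libraries, 2 of 6 tested markers higher and 2 lower, with ssp-9 at 0). In whole worms, fewer cells of a type and less RNA per cell cannot be told apart, and the part of these markers in the results that follow was not tested.

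More family members were lower than higher in the mutant. Of the 93 genes, 64 had enough reads to be tested, and 23 of them fell, 7 rose and 34 did not pass edgeR's quasi-likelihood test at an adjusted p of 0.05. Over all 14248 genes tested the calls were almost even, with 29.6% lower and 30.1% higher, 59.7% in all, while 35.9% of the tested members were lower and 10.9% higher. The median log2 change (xpf-1 over N2) was -0.25 over the tested members and 0.03 over all genes tested. All 6 xpf-1 libraries lay below all 6 N2 libraries for 16 of the members called lower, where 20.2% of all tested genes did so, and above them for 2 of those called higher, where 17.8% did. At least a halving was seen in 5 members (2.51% of all tested genes) and at least a doubling in 1 (6.23%).

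These counts describe the members that passed the low-count filter and are not offered as support. The filter asks for about 0.492 CPM in 6 libraries. It was met in all 12 libraries by 57 of the 64, and math-5 met it in N2 libraries alone. The 29 members below it are described further on. Without the 3 libraries that stood apart, a choice made after seeing the data, 22 members fell and 5 rose. The p-values rest on variation from library to library, which may be technical, since the labels speak of biological triplicates where 6 libraries per group were analysed.

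**Figure D1:**
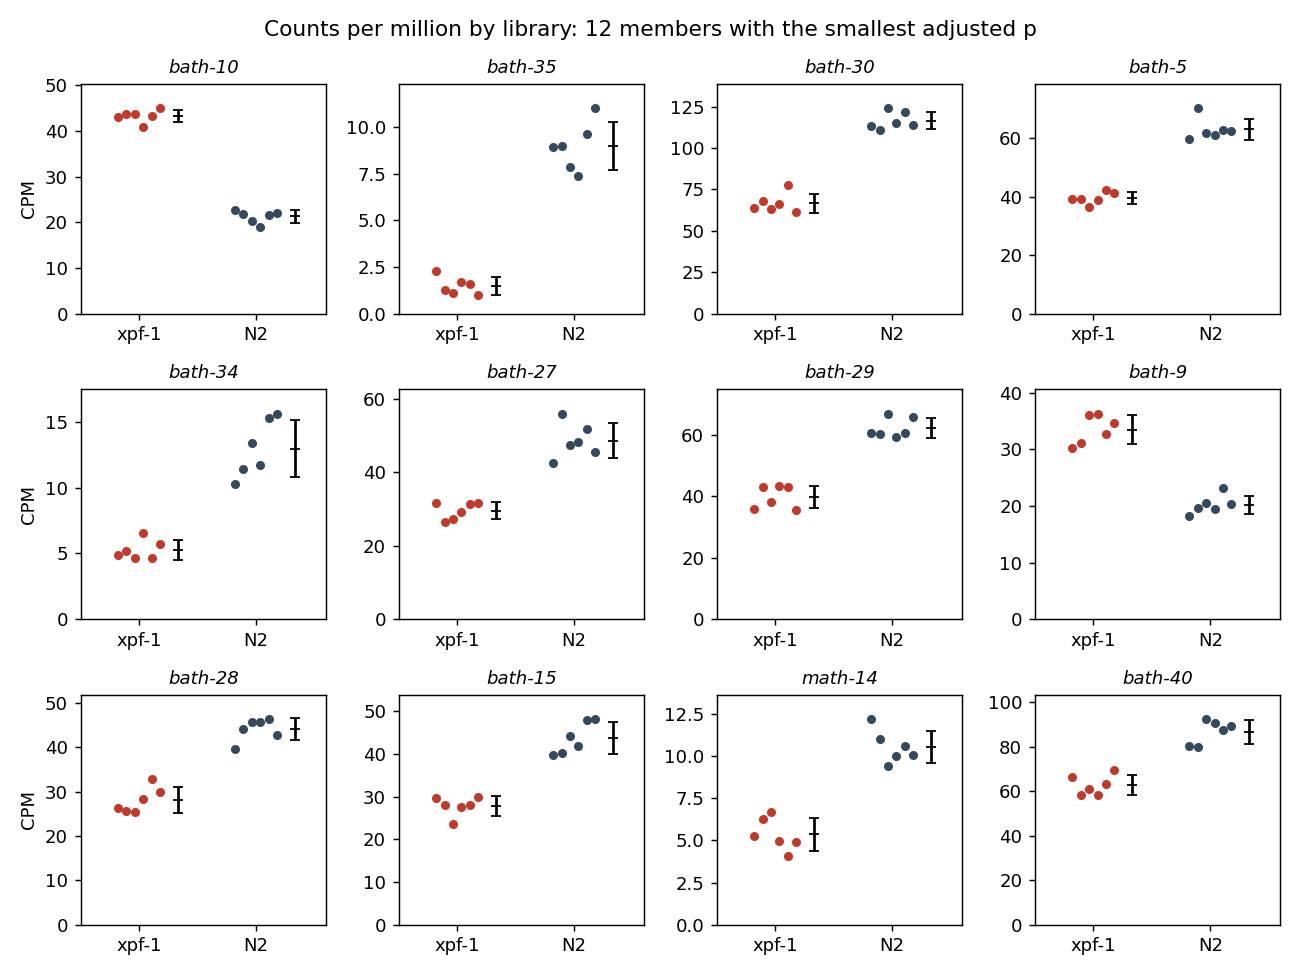
CPM in each library (points; xpf-1 red, left, N2 dark, right; vertical axes start at 0) with mean ± SD over 6 libraries (bars) for the 12 members of smallest adjusted p. In each panel the 6 xpf-1 libraries and the 6 N2 libraries do not overlap, and xpf-1 is above N2 for bath-10 and bath-9 and below it for the other members.

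The level of the members spanned a wide range. Per kilobase of gene length, the highest was bath-42, at 177 ± 12.5 CPM per kilobase in xpf-1 libraries and 201 ± 12.9 in N2 libraries. Then came bath-41, at 125 ± 5.18 in xpf-1 libraries and 150 ± 4.40 in N2 libraries (SD, n = 6 each, CPM per kilobase). The next pair changed places between the groups. In xpf-1 libraries bath-43 stood at 85.5 ± 4.84 and bath-30 at 69.9 ± 6.04 CPM per kilobase, whereas N2 libraries had bath-43 at 87.4 ± 8.37 and bath-30 at 122 ± 5.27. By the mean over both groups bath-5 followed, at 39.0 ± 1.98 CPM per kilobase in xpf-1 libraries and 62.2 ± 3.64 in N2 libraries. Further down, at ranks 6 and 8, bath-38 and bath-44 did not differ from each other beyond their spread. They had 45.3 ± 2.66 and 42.6 ± 1.75 CPM per kilobase in xpf-1 libraries and 47.2 ± 3.58 and 45.7 ± 4.59 in N2 libraries. The tested member with the lowest mean over both groups, bath-25, had 0.356 ± 0.173 CPM per kilobase in xpf-1 libraries and 0.445 ± 0.190 in N2 libraries, and in xpf-1 libraries alone math-5 was lower, at 0.142 ± 0.145. The 5 members with most reads, bath-42, bath-41, math-33, bath-43 and bath-30, held 54.1% of the family's summed CPM.

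Of 44 bath genes, 41 could be tested, and 16 fell (39.0%) and 5 rose (12.2%). Of 49 math genes, 23 could be tested, and 7 fell (30.4%) and 2 rose (8.7%). Over all tested genes 29.6% fell and 30.1% rose. The median log2 fold change was -0.27 over the tested bath genes and -0.12 over the tested math genes, and no test compared the classes. The summed CPM of the bath genes was 1300 ± 44.0 in xpf-1 libraries and 1565 ± 51.7 in N2 libraries, and the groups did not overlap, with 1223 to 1337 CPM in xpf-1 libraries and 1481 to 1610 CPM in N2 libraries. The summed CPM of the math genes was 302.9 ± 14.6 in xpf-1 libraries and 303.3 ± 12.7 in N2 libraries (SD, n = 6 each). Most of this sum was the single gene math-33, which rose by 0.19 ± 0.07 log2 units (SE). The near-equal math sums therefore do not show that the other math genes were unchanged, and a sum without math-33 was not tested.

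The family sits mostly on chromosome II, which carries 79 of the 93 genes, and 69 of all members stand in 11 clusters of neighbouring copies, each no more than 10000 bases from the next. Of the 45 tested members in clusters 18 fell and 4 rose, and of the 19 outside them 5 fell and 3 rose. Between math-34 and bath-31 on chromosome II, 17 of 49 tested members fell and 5 rose (median log2 change -0.27). The 373 tested protein-coding genes of the same stretch that are not in the family had 78 lower and 139 higher, with a median of 0.15. At a mean of 10 CPM or more, a limit set after seeing the data, 8 of 13 members of the stretch fell and 3 rose, and 52 of 160 other genes fell and 61 rose.

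**Figure D2:**
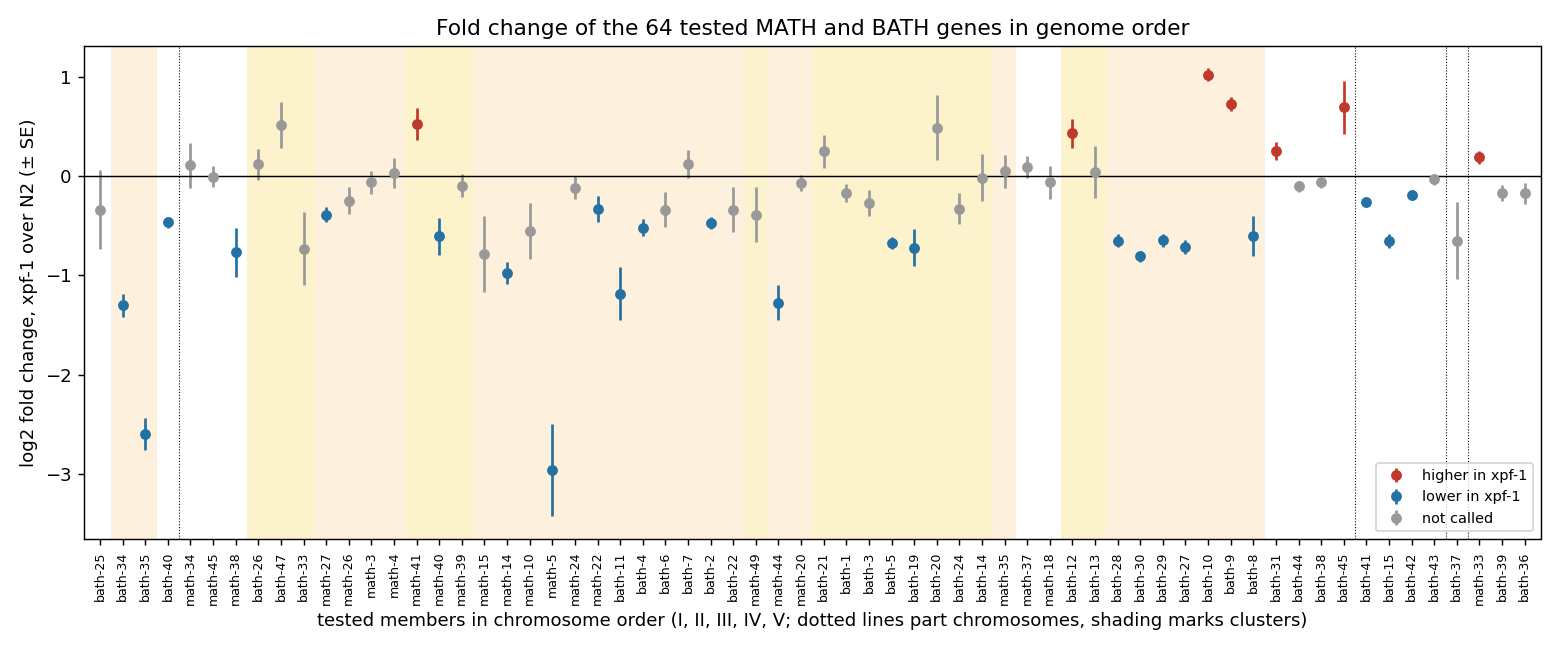
Log2 change (xpf-1 over N2) with its standard error (vertical axis) for the 64 tested members in chromosome order (horizontal axis); colour gives the call and shading the clusters. The lowest points are math-5 at -2.96, which entered the test through its N2 libraries alone, and bath-35 at -2.60, and bath-10 at 1.02 and bath-9 at 0.73 rise in the same cluster in which bath-30 falls by 0.81.

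The pair bath-34 and bath-35 on chromosome I fell in both its members. The bath-35 gene (WBGene00012196, chromosome I, 12758524 to 12759573, WBcel235) had a lowest, median and highest value of 0.974, 1.42 and 2.30 CPM in xpf-1 libraries, against 7.39, 8.96 and 11 CPM in N2 libraries (the same order of lowest, median and highest is used for the members that follow). Every xpf-1 library lay well below every N2 library, and the mean of xpf-1 was 16.5% of that of N2. The log2 fold change was -2.60 ± 0.16 (SE; edgeR adjusted p = 4.62e-15). Its neighbour bath-34 (WBGene00012195, 12749890 to 12752067) had 4.62, 5.02 and 6.52 CPM in xpf-1 libraries, against 10.3, 12.6 and 15.6 CPM in N2 libraries. The groups again did not overlap, and the log2 fold change was -1.30 ± 0.12 (SE; edgeR adjusted p = 1.98e-11). The genes on either side of the pair did not pass the test: uba-2, a subunit of the SUMO activating enzyme, had a log2 fold change of -0.03 ± 0.07 (adjusted p = 0.697), and the amine oxidase gene amx-2 one of 0.09 ± 0.12 (adjusted p = 0.554).

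In a cluster of 8 bath genes on chromosome II, from 3343684 to 3381403, neighbouring copies moved in opposite directions. The gene bath-10 (WBGene00021726, 3375143 to 3376714) had 41, 43.5 and 45.0 CPM in xpf-1 libraries, against 19, 21.8 and 22.8 CPM in N2 libraries. Its xpf-1 libraries were tightly grouped at about 203% of the N2 mean, with a log2 fold change of 1.02 ± 0.06 (SE; edgeR adjusted p = 3.54e-15). Next to it bath-9 (WBGene00021725, 3377111 to 3378726) had 30.2 to 36.3 CPM in xpf-1 libraries, against 18.3 to 23.1 CPM in N2 libraries. The groups did not overlap, and the log2 fold change was 0.73 ± 0.07 (edgeR adjusted p = 1.76e-10). The annotation has 208 exon bases shared by bath-9 and the low-count gene Y49F6C.2 (72 reads over the 12 libraries).

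The other well-read copies of this cluster fell. For bath-30 (WBGene00017460, 3345280 to 3346371), xpf-1 libraries had 61.5, 64.9 and 77.4 CPM, against 111, 114 and 124 CPM in N2 libraries. The highest xpf-1 library was far under the lowest N2 library, and the log2 fold change was -0.81 ± 0.06 (SE; edgeR adjusted p = 3.38e-14). The 3 other copies that were read at similar depth fell by similar amounts without overlap between the groups. The means were 39.8 ± 3.66 CPM in xpf-1 libraries and 62.3 ± 3.22 CPM in N2 libraries for bath-29, 29.6 ± 2.32 CPM in xpf-1 libraries and 48.6 ± 4.72 CPM in N2 libraries for bath-27, and 28.1 ± 2.92 CPM in xpf-1 libraries and 44.0 ± 2.47 CPM in N2 libraries for bath-28 (SD, n = 6 each). Their log2 fold changes were -0.65 ± 0.06, -0.72 ± 0.07 and -0.65 ± 0.07 (SE; edgeR adjusted p = 1.33e-10, 1.22e-10 and 7.15e-10). The pseudogene bath-8 at the right end fell by 0.61 ± 0.20 log2 units (edgeR adjusted p = 0.0101) and overlapped between the groups, and bath-23 was too low to test. Of the tested non-members beside its copies, F14D2.15 fell by 0.86 ± 0.07, Y49F6C.8 by 0.46 ± 0.07 and T06D4.1 by 0.41 ± 0.06 log2 units. The others, F14D2.14, F14D2.8 and F14D2.2, did not pass, with log2 fold changes of -0.48, -0.02 and 0.17 (edgeR adjusted p = 0.0933, 0.923 and 0.670). The exons of bath-28 and F14D2.15 share 24 bases and those of bath-27 and F14D2.2 share 610 bases, and how reads in shared exons were counted is not known.

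The largest cluster, 25 genes over 62.3 kilobases of chromosome II from math-15 to bath-22, had 12 tested members, of which 6 fell and 0 rose. The gene math-14 (WBGene00015828, 1869410 to 1870797) had 4.07, 5.10 and 6.69 CPM in xpf-1 libraries, against 9.41, 10.3 and 12.2 CPM in N2 libraries. The groups did not overlap and the level was 50.8% of that of N2, a log2 fold change of -0.97 ± 0.11 (SE; edgeR adjusted p = 6.31e-09). In the same cluster math-5 (WBGene00015834, 1881611 to 1882805) had 3, 0, 3, 7, 1 and 1 reads in xpf-1 libraries, against 17, 21, 27, 12, 26 and 12 reads in N2 libraries. The fitted log2 fold change was -2.96 ± 0.47 (SE; edgeR adjusted p = 1.86e-06). It passed the low-count filter in 0 xpf-1 and 6 N2 libraries, so it entered the test only through the group in which it is high, and its p carries that limit. At the other end of the cluster bath-2 averaged 33.6 ± 2.64 CPM in xpf-1 libraries and 46.5 ± 1.97 CPM in N2 libraries, and bath-4 averaged 11.3 ± 0.990 CPM in xpf-1 libraries and 16.2 ± 1.65 CPM in N2 libraries (SD, n = 6 each). Between them bath-7 and bath-6 did not pass, with log2 fold changes of 0.12 ± 0.14 and -0.34 ± 0.17 (edgeR adjusted p = 0.468 and 0.0952).

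In the other clusters calls were scattered. Among the 9 genes from bath-21 to bath-14, bath-5 (WBGene00019141, chromosome II, 2030750 to 2031944) had 36.6, 39.1 and 42.4 CPM in xpf-1 libraries, against 59.8, 62.0 and 70.2 CPM in N2 libraries. The groups did not overlap, and the log2 fold change was -0.67 ± 0.06 (SE; edgeR adjusted p = 9e-12). The adjacent copies bath-3 and bath-1 had log2 fold changes of -0.27 ± 0.13 and -0.17 ± 0.09 (edgeR adjusted p = 0.0816 and 0.115). In another cluster, math-44 averaged 2.62 ± 0.936 CPM in xpf-1 libraries and 6.28 ± 0.741 CPM in N2 libraries, without overlap, while math-20 of the same cluster averaged 13.4 ± 0.826 CPM in xpf-1 libraries and 14.1 ± 0.891 CPM in N2 libraries (SD, n = 6 each). In the trio math-41, math-40 and math-39, the first rose by 0.52 ± 0.16 and the second fell by 0.61 ± 0.19 log2 units (edgeR adjusted p = 0.00583 and 0.00625), both with overlapping groups, and math-39 had a log2 fold change of -0.10 ± 0.12 (adjusted p = 0.490). The coefficient of variation between libraries had a median of 7.63% in xpf-1 and 7.71% in N2 among the 22 members of at least 10 CPM, against 20.1% in xpf-1 and 18.6% in N2 for the 42 tested members under it.

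Members on other chromosomes included those with the most reads. All 4 on chromosome III were above 10 CPM, where 41.5% of all tested genes fell and 30.7% rose. Of these 4, 3 fell, too few genes to be read as a trait of the chromosome. There, bath-41 (WBGene00018137, 6720415 to 6722258) had 179, 186 and 199 CPM in xpf-1 libraries, against 215, 224 and 232 CPM in N2 libraries. The groups did not overlap, at a log2 fold change of -0.26 ± 0.04 (SE; edgeR adjusted p = 4.98e-06). The bath-42 gene (WBGene00016803, 8161449 to 8163383) had 259, 310 and 315 CPM in xpf-1 libraries, against 301, 351 and 362 CPM in N2 libraries. xpf-1 replicate 1 and N2 replicate 2 were each low in their group, the groups overlapped, and the fall was 0.19 ± 0.05 log2 units (edgeR adjusted p = 0.0027). That call was lost with library totals only (adjusted p 0.0725) and with upper quartile factors (0.0669). The gene bath-15 averaged 27.8 ± 2.31 CPM in xpf-1 libraries and 43.7 ± 3.72 CPM in N2 libraries, without overlap, for a log2 fold change of -0.65 ± 0.07 (edgeR adjusted p = 8.75e-10). Of its neighbours outside the family, ZK686.1 fell by 0.66 ± 0.05 and mab-5 rose by 0.50 ± 0.15 log2 units (edgeR adjusted p = 1.08e-12 and 0.0051).

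The worm counterpart of mammalian SPOP, a BATH-type adaptor of the cullin ligase, is listed as bath-43 in the deposited table and as spop-1 in the reference name table (WBGene00011815, chromosome III, 10090862 to 10098081). It had 134, 152 and 155 CPM in xpf-1 libraries, against 123, 156 and 164 CPM in N2 libraries. The groups overlapped, and the log2 fold change of -0.03 ± 0.06 did not pass (edgeR adjusted p = 0.641). On chromosome I, bath-40 averaged 62.8 ± 4.47 CPM in xpf-1 libraries and 86.7 ± 5.32 CPM in N2 libraries, a log2 fold change of -0.47 ± 0.06 (SE; edgeR adjusted p = 1.37e-08). On chromosome II outside the clusters, bath-44 and bath-38 had log2 fold changes of -0.10 ± 0.06 and -0.06 ± 0.06 and did not pass (edgeR adjusted p = 0.121 and 0.396).

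The gene math-33 (WBGene00010406, chromosome V, 11113914 to 11118820) encodes a protein of another kind, a ubiquitin protease related to mammalian USP7 that removes ubiquitin from the transcription factor DAF-16. It had 166, 180 and 196 CPM in xpf-1 libraries, against 121, 162 and 174 CPM in N2 libraries. The groups overlapped, and the rise of 0.19 ± 0.07 log2 units had an edgeR adjusted p of 0.0190. At 4214 bases it is the longest member, where the median is 1075 bases. With the trend of counts on gene length removed, its log2 fold change was -0.01 (adjusted p 0.821), and with the 3 libraries that stood apart left out it was 0.17 (adjusted p 0.0895). The transcript of daf-16 itself averaged 82.0 ± 2.06 CPM in xpf-1 libraries and 96.5 ± 9.78 CPM in N2 libraries, a fall of 0.23 ± 0.06 log2 units (edgeR adjusted p = 0.000741).

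**Figure D3:**
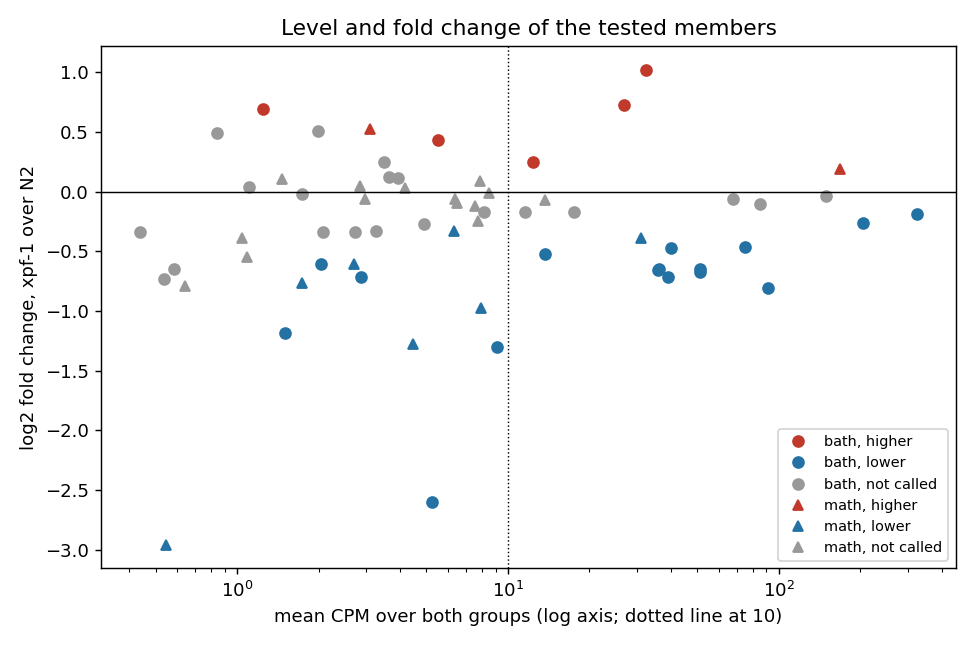
Log2 change (xpf-1 over N2) (vertical axis) against mean CPM over both groups (horizontal log axis) for the tested members; circles are bath genes, triangles math genes, colour gives the call. To the right of the dotted line at 10 CPM, 12 of 22 members fell and 4 rose, and to its left 11 of 42 fell and 3 rose.

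The share of calls depended on level over all genes, and the family was read against genes of like level. At a mean of 10 CPM or more, 41.5% of all tested genes fell and 30.7% rose, against 12 and 4 of the 22 members, that is 54.5% and 18.2%. Under 10 CPM, 13.3% of all tested genes fell and 29.3% rose, against 11 and 3 of the 42 tested members, that is 26.2% and 7.14%. The 34 members that did not pass had log2 fold changes from -0.79 to 0.51, 24 below and 10 above 0. The other calls were small or rested on few reads. Among them bath-31, bath-12 and bath-45 rose by 0.25 ± 0.09, 0.43 ± 0.15 and 0.69 ± 0.27 log2 units, and math-22, math-38 and bath-19 fell by 0.33 ± 0.13, 0.77 ± 0.25 and 0.72 ± 0.19. The remaining falls were math-27 by 0.39 ± 0.08 and the pseudogene bath-11 by 1.19 ± 0.27 log2 units. The bath-45 call was lost without N2 replicate 2 (adjusted p 0.0586), N2 replicate 3 (0.0687), xpf-1 replicate 2 (0.0654) or xpf-1 replicate 3 (0.0515). That of math-22 was lost without N2 replicate 2 (0.147), N2 replicate 4 (0.0622), xpf-1 replicate 2 (0.0679) or xpf-1 replicate 5 (0.0591).

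The 29 members below the filter, 26 of them math genes, were too low for the main test. They had 617 reads in the xpf-1 libraries and 423 in the N2 libraries, and between 1 and 137 reads each over all 12. The xpf-1 libraries had more reads than the N2 libraries for 19 of them (65.5%), fewer for 9 and equal numbers for 1. Low genes in general showed this: of 12109 other untested genes with 1 to 137 reads, 70.9% had more reads in xpf-1 libraries and 24.3% fewer, and each xpf-1 library had reads for 19689 to 20886 genes, against 18419 to 19213 in N2 libraries. The excess is not read as a result about the family. The largest ratio was that of math-30, with 14, 2, 6, 4, 3 and 7 reads in xpf-1 libraries, against 0, 0, 0, 0, 0 and 1 reads in N2 libraries. The reads per total differed 35.8-fold, with a 95% counting interval of 6.03 to 1450 (exact Clopper-Pearson, counting error only). The gene math-13, in the same cluster, had 20 reads in xpf-1 libraries, of which 2 libraries had 0, and 1 in N2 libraries (ratio 19.9, interval 3.18 to 824). Both were named after their values were seen.

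When every gene with at least 10 reads over the 12 libraries was tested, 87 members entered, and 24 fell and 12 rose, where 22.4% of all genes so tested fell and 23.5% rose. The calls added were rises of math-30, math-46, math-28, math-13 and math-7 and a fall of math-21. Of these, math-30, math-13 and math-7 reach 10 reads only through the xpf-1 libraries, in which they are high, so their calls carry the same limit as that of math-5. With an edgeR adjusted p of 0.000267, math-30 had the smallest of these, and that of math-7 was 0.0395. In the members with most reads among the untested, math-21 had 45 reads in xpf-1 libraries and 92 in N2 libraries, bath-18 had 34 in xpf-1 libraries and 52 in N2 libraries, and math-42 had 57 in xpf-1 libraries and 24 in N2 libraries. The deposited table lists 9 members as pseudogenes, and the Ensembl annotation used here of the same build lists 19, math-30 and math-27 among the added ones.

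**Figure D4:**
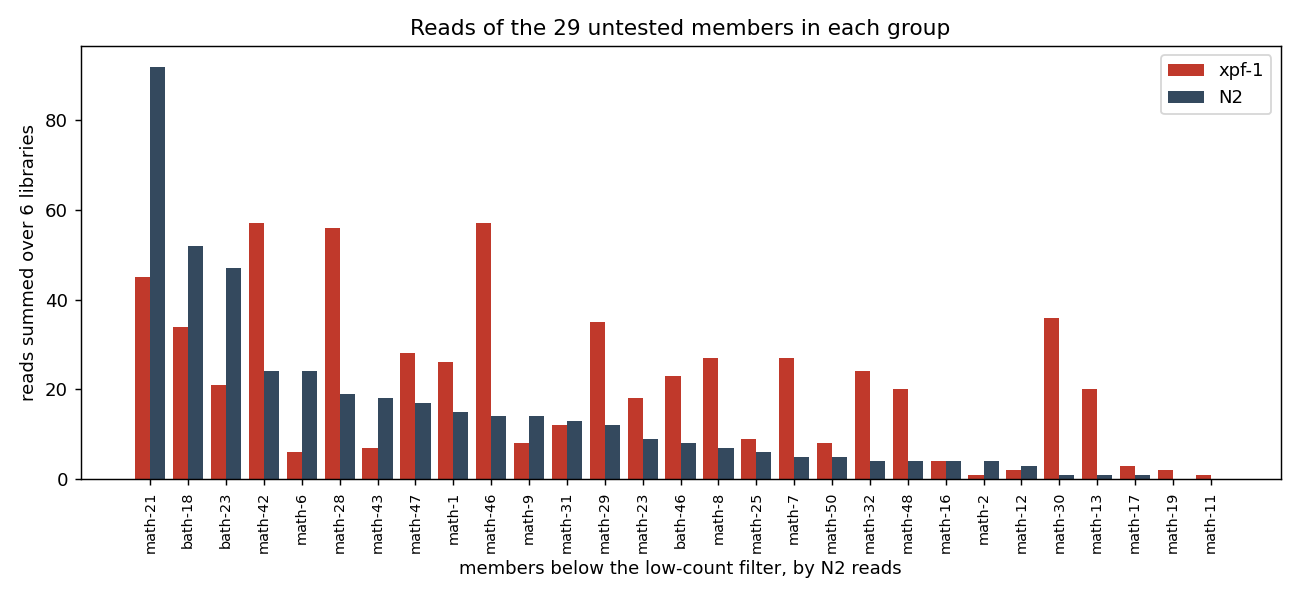
Reads summed over the 6 libraries of a group (vertical axis from 0; xpf-1 red, left, N2 dark, right) for the 29 members below the low-count filter, ordered by N2 reads (horizontal axis). The members with 5 or fewer N2 reads include math-30, with 36 reads in xpf-1 and 1 in N2, and math-7, with 27 in xpf-1 and 5 in N2.

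Of the 85 protein-coding genes nearest to the members, 55 were tested, 20 fell and 8 rose (median log2 change -0.08). These shares, 36.4% and 14.5%, lay close to the 35.9% and 10.9% of the tested members, where all tested genes had 29.6% and 30.1%. The neighbours were not matched for level, and many that fell lie outside the stretch from math-34 to bath-31. Within that stretch 78 of 373 tested protein-coding non-members fell and 139 rose. What lies behind the likeness was not tested. Those with the smallest adjusted p included F36H5.4 beside math-28, which rose by 1.22 ± 0.09 log2 units, and the F-box gene fbxb-13 beside math-2, which rose by 1.03 ± 0.10. Among those that fell were F25H9.2 beside bath-39, by 1.06 ± 0.10, and F59H5.1 beside bath-12, by 0.72 ± 0.07 log2 units (edgeR adjusted p = 1.19e-10 and 2.26e-10). The exons of F25H9.2 and bath-39 share 68 bases, and bath-39 itself did not pass (log2 fold change -0.17 ± 0.08, adjusted p = 0.0729).

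Machinery of cullin ligases, with the CUL-3 onto which BATH proteins dock, was counted from a list. Its 16 genes encode CUL-3, RING subunits of cullin ligases, and proteins that attach or remove the ubiquitin-like protein NED-8, which switches cullins on. Of these, 10 fell (62.5%), 2 rose and 4 did not pass. All 16 were above 10 CPM, where 41.5% of all tested genes fell and 30.7% rose. Their median log2 fold change was -0.17. The cullin gene cul-3 averaged 83.6 ± 3.85 CPM in xpf-1 libraries and 106 ± 12.1 CPM in N2 libraries, with overlapping groups (log2 fold change -0.34 ± 0.06, edgeR adjusted p = 1.95e-05). The RING subunit gene rbx-1 averaged 362 ± 16.7 CPM in xpf-1 libraries and 485 ± 29.5 CPM in N2 libraries (SD, n = 6 each), and rfl-1, of the NED-8 activating enzyme, fell by 0.40 ± 0.05 log2 units. The RING gene rbx-2 fell by 0.43 ± 0.06 and the NED-8 protease gene ulp-3 by 0.52 ± 0.07 log2 units. The rises were cand-1, which exchanges the adaptors bound to cullins, by 0.32 ± 0.06, and csn-1 of the COP9 signalosome by 0.14 ± 0.05. Germline markers fell in the same libraries, 21 of 22, and a link between them and the ligase genes was not tested.

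Among 12 named adaptors and targets of the CUL-3 ligase, 5 fell (41.7%) and 4 rose (33.3%). Over all tested genes 29.6% fell and 30.1% rose, and at a mean of 10 CPM or more 41.5% and 30.7%. The counts lay near the shares at that level and are not read as a result about the list. The adaptor gene mel-26 averaged 287 ± 5.94 CPM in xpf-1 libraries and 350 ± 31.5 CPM in N2 libraries, without overlap (log2 fold change -0.29 ± 0.05, edgeR adjusted p = 1.57e-05). Its target katanin fell in both subunits, mei-1 by 0.38 ± 0.05 and mei-2 by 1.02 ± 0.06 log2 units. The levels of mei-2 were 91.3 ± 7.84 CPM in xpf-1 libraries and 185 ± 16.5 CPM in N2 libraries (edgeR adjusted p = 7.97e-15). The BTB gene hpo-9 fell by 0.33 ± 0.05, and kel-8, a BTB and kelch protein that acts on glutamate receptors in neurons, rose by 0.87 ± 0.12 log2 units. Of 9 TRAF relatives and ubiquitin proteases, counted with daf-16, 3 fell and 3 rose (33.3% each), near the shares over all tested genes. The deubiquitinase gene cyld-1 fell by 0.51 ± 0.05 and usp-46 by 0.40 ± 0.06, and usp-5 rose by 0.33 ± 0.05 log2 units.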

How the data were processed

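Per the submitters' processing notes, the authors used CASAVA, HISAT2 2.1.0, featureCounts 1.5.0-p3 and the WBcel235 build. The strand setting and the treatment of reads that match several genes are not given, so near-identical copies of this family may share reads. The deposited table holds raw counts per gene for 12 libraries, with gene length in bases and coordinates, and the authors' own log2 fold changes and p-values. The 26 columns of normalised values or group means were not used. Total counts of 18407182 to 22817135 per library limit precision for low members.

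Counts were fitted in R 4.3.3 with edgeR 4.0.16 (filterByExpr, TMM factors, robust quasi-likelihood test of xpf-1 against N2 over 14248 genes, Benjamini-Hochberg adjustment). CPM uses TMM-adjusted library sizes. The procedure was tested on simulated data. Alternatives were DESeq2 1.42.0, limma 3.58.1 (voom), other scalings, filters and thresholds, a test against a 1.5-fold change, a gene length trend, a replicate block and leaving out libraries. No pair of libraries agreed within sampling noise.

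The members and gene lists were chosen with earlier results of these data known. Named genes are the called members, the 5 highest per kilobase, the 3 untested members with most reads, adjacent tested pairs, up to 4 genes per list and up to 6 neighbours of smallest adjusted p, and other genes were named after their values were seen. The split at 10 CPM and the fit without 3 libraries were chosen after seeing the data. Of 93 gene IDs, 74 were in the reference name table and all 93 in the Ensembl annotation of WBcel235, 25 with the same coordinates; exon overlaps come from that annotation and coordinates from the deposited table. Promoter and protein sequences were not used here.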

Additional observations from a re-analysis of the deposited data

Results flagged for a closer look

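Among 64 groups of 6 libraries, 4 had a library whose gap to the nearest other exceeded 0.625 of the group's range (Dixon's 95% value), and chance gives about 1 in 20. These groups did not cover every tested member. Outside them, math-10 had 1.91 CPM in xpf-1 replicate 4, where the other xpf-1 libraries had 0.518 to 0.76 CPM. The account that follows holds only for the groups screened. In xpf-1 replicate 1, bath-42 had 259 CPM, where the other xpf-1 libraries had 305 to 315 CPM. N2 replicate 2 supplied the other 3. It had 301 CPM of bath-42, where the other N2 libraries had 344 to 362 CPM, and 121 CPM of math-33, below all other N2 libraries, whose highest had 174 CPM. It also had 70.2 CPM of bath-5, where the others had 59.8 to 62.9 CPM.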

How the results depend on the processing

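The main fit called 23 members lower and 7 higher. Against a 1.5-fold change the test called 1643 genes in all and 8 members, 7 lower and 1 higher. Members called higher numbered 11 with no low-count filter, where 17.6% of all genes so tested rose. With at least 10 counts over the libraries they numbered 12, where 23.5% rose. At an adjusted p of 0.01 they numbered 3, where 7089 genes were called in either direction. Members tested numbered 36 at 5 CPM in 6 libraries. The log2 fold change of bath-43 was 0.035 with library totals, 0.044 with upper quartile factors and 0.014 at 5 CPM, never past the threshold, and that of math-33 was -0.013 with the gene length trend removed; the cause was not tested. Leaving out 1 library at a time gave 6 to 8 members higher and 23 to 28 lower. Without the 3 libraries that stood apart, math-33, bath-45 and math-22 lost their calls. The call of math-22 was also lost with library totals, upper quartile factors, voom and the 5 CPM filter, and that of bath-31 with no filter (adjusted p 0.0707). Replicate numbers did not pair the libraries (same-number correlations -0.00312 to 0.12, with own number best for replicates 1 and 4), and a replicate block called 8536 genes, 24 members lower and 8 higher. The depth limits what can be said of the 29 untested members.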

Other observations

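A pair of other adaptor families is given for description, with no test between families. Over all tested genes 30.1% rose and 29.6% fell. In the F-box A family, whose proteins serve the cullin ligases built on SKP1-type adaptors, 51 of 147 tested genes rose (34.7%) and 31 fell (21.1%; median log2 change 0.22). In the family of genes named for the BTB domain alone, 2 of 18 tested genes rose (11.1%) and 5 fell (27.8%; median -0.13). Of 10 genes of the CUL-6 ligase and the intracellular pathogen response, 6 rose (60%) and 4 fell (40%). The cullin gene cul-6 averaged 19.3 ± 2.32 CPM in xpf-1 libraries and 9.66 ± 0.741 CPM in N2 libraries (SD, n = 6 each; log2 fold change 0.99, edgeR adjusted p = 2.97e-11), and the F-box gene fbxa-75 averaged 0.776 CPM in xpf-1 libraries and 5.78 CPM in N2 libraries (log2 fold change -2.91, edgeR adjusted p = 5.18e-14).

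The authors' deposited table called 37 members, 25 lower and 12 higher. Of these, 30 were called here as well, all with the same sign, and the other 7 in the authors' deposited table were below the low-count filter used here.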
